A study of Mus musculus with 4 samples.

Results

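Keratins are the intermediate filament proteins of epithelial cells. A keratin filament is built from pairs of a type I (acidic) and a type II (basic) chain, so an epithelium expresses members of both types together. Simple epithelia and early ducts carry Krt8 with Krt18, often with Krt7 and Krt19, whereas the basal cells of stratified epithelia and the progenitors of the salivary gland carry Krt5 with Krt14 and Krt15, and differentiating layers switch to other pairs such as Krt1 with Krt10.

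The keratin genes were taken as all rows of the expression table whose symbol is Krt followed by digits only, which gave 49 of the 24771 listed features. Of these, 26 encode type I and 23 type II chains. Keratins with a letter in the symbol (such as Krt6a) and keratin-associated proteins (Krtap) are outside this rule.

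RNA of PSC-derived SG placodes was compared with RNA of mouse submandibular glands (SMGs) at E12.5, each as 2 samples. The placodes were collected on day 10 of culture from aggregates of 1 mouse embryonic stem cell line. The aggregates were seeded at 3000 cells per well, held in 2% Matrigel from the day after seeding, given BMP4 at 2 ng/ml on day 3, and bFGF at 25 ng/ml with RA at 1 μM on day 4. FGF10 was present at 200 ng/ml once they had been moved to new wells on day 6. The strain of the embryos, the number pooled and the way in which the SMGs were dissected are not given in the sources used here. No genetic change is labelled in either group. Nothing states that the samples of a group came from separate cultures or litters, so the spread between them may be technical. The p-values set the difference between groups against this spread.

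Expression was given as FPKM, which divides the fragments of a gene by its transcript length and by the mapped total of the sample, so levels of different genes within a sample are on 1 scale per length. The sums of FPKM per sample lay between 361963 and 384773, and Pearson's r across tested features was 0.994 within the placodes, 0.992 within the SMGs and 0.712 to 0.716 across groups. Read counts could not be recovered, so depth is unknown and no floor of detection is given. The groups were compared on log2(FPKM + 1) with limma, which borrows information on the spread from all features, and a gene was called different at a Benjamini-Hochberg adjusted p below 0.05. Features below a mean FPKM of 1 were left out, and of the 13193 tested 76.2% were called, 35.7% higher and 40.4% lower in the placodes. In whole tissue, fewer cells of a type and less RNA per cell cannot be told apart.

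All 49 keratin genes lie in a pair of clusters, for which coordinates are those of GENCODE M21 on GRCm38. The 25 members on chromosome 11 are all type I and span 1037 kb (chr11:99232761-100269871). The 24 members on chromosome 15 are the 23 type II genes and the type I gene Krt18, over 685 kb (chr15:101347444-102032027). Krt8 (chr15:101996698-102004482) and its partner Krt18 (chr15:102028180-102032027) are neighbours, 23.7 kb apart, at the end of this cluster.

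The start regions of genes that went together or apart in these samples are shown next. Each is a 300-base window from RefSeq on GRCm38.p6, with 250 bases before and 50 bases after the gene start, written 5′ to 3′ on the coding strand with CpG dinucleotides in capitals. Krt7, Krt8 and Krt18 were expressed in the placodes, and Krt5 and Krt14 were listed at 0 there. The windows lie at chr15:101412153-101412452 (plus strand) for Krt7, chr15:102004293-102004592 (minus) for Krt8, chr15:102027966-102028265 (plus) for Krt18, chr15:101712856-101713155 (minus) for Krt5 and chr11:100205981-100206280 (minus) for Krt14. The RefSeq starts of Krt7 and Krt14 lie within the GENCODE spans of these genes (chr15:101411043-101430313 and chr11:100203162-100207548), 1360 and 1518 bases past the GENCODE starts, so these windows do not cover the outermost annotated starts.
Krt7: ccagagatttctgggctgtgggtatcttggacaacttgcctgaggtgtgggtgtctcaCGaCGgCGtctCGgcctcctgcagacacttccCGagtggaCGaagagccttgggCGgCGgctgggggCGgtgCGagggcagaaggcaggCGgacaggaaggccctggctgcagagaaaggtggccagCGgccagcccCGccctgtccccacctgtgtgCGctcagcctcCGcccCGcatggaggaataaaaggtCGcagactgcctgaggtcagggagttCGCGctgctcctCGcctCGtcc
Krt8: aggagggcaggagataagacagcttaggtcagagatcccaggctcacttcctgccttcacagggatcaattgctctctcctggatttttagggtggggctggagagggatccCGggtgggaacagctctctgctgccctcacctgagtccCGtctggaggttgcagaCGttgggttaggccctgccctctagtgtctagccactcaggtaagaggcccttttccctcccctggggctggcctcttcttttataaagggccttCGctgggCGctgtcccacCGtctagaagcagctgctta
Krt18: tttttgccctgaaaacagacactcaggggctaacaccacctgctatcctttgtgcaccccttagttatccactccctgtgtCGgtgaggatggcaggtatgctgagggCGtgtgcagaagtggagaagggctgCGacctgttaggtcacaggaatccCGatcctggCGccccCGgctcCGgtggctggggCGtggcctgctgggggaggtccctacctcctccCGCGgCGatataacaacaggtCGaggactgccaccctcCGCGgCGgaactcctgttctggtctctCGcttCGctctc
Krt5: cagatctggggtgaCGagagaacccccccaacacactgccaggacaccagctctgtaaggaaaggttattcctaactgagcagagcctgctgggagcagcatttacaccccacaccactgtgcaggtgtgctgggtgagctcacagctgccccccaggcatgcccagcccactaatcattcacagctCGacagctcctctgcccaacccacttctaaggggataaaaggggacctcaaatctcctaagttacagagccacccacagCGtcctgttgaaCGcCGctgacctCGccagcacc
Krt14: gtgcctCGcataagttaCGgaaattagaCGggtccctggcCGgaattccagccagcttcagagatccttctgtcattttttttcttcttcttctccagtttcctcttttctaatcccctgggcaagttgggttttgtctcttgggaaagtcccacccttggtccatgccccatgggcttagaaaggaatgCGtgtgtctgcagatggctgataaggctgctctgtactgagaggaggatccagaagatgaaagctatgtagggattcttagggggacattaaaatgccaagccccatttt

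The Krt7 window held 21 CpG dinucleotides and the Krt18 window 17. No other keratin window held more than 11, and the median was 5 over the 36 windows of 35 members, against 7 over all 32851 mouse windows. Krt8 held 6, as did Krt5, and Krt14 held 5. The window of Krt10, which was expressed in both groups, held 2. Krt15 and Krt19 had no window, and those of Krt7 and Krt14 do not cover the outermost annotated starts. A relation of CpG number to expression was not tested. The letters TATAAA, searched on both strands, were present in 18 of the 36 keratin windows and in 13.6% of all windows. They were found in the Krt8 window but not in those of Krt7, Krt18, Krt5 or Krt14. The letters GGGCGG were present in 2 keratin windows, Krt7 with 4 matches and Krt75 with 1, and in 35.7% of all windows.

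Of the 49 keratin genes, 5 reached an FPKM of 1 in both placode samples and 10 did so in both SMG samples, with 4 genes (Krt8, Krt10, Krt18 and Krt19) in common. Over all 24771 features, 12419 did so in the placodes and 12504 in the SMGs. Krt7 reached this level only in the placodes, and Krt1, Krt4, Krt5, Krt14, Krt15 and Krt17 only in the SMGs. The remaining 38 genes stayed below it in at least 1 sample of each group. Both samples listed 33 members at 0 in the placodes and 21 in the SMGs.

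**Figure D1:**
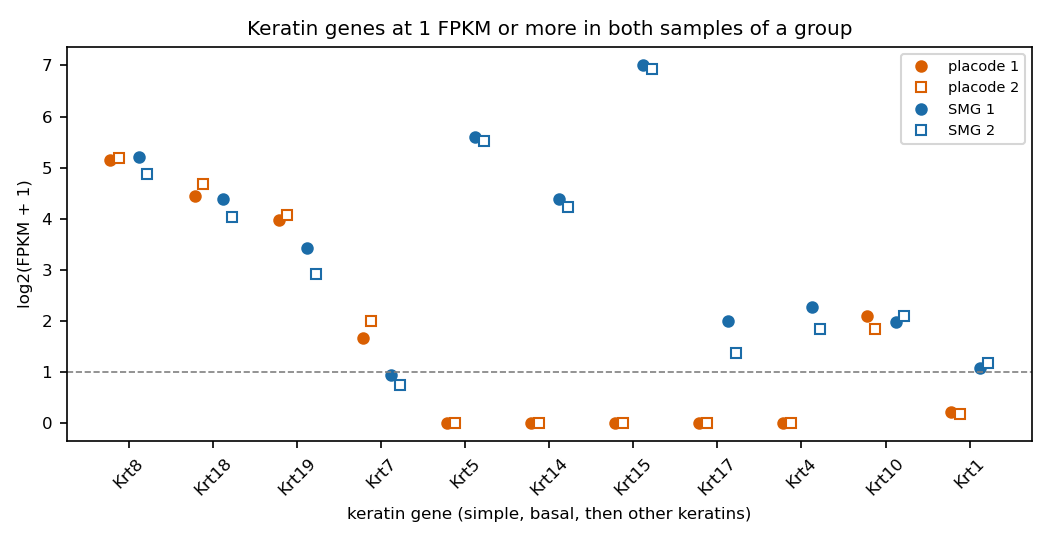
Level of each keratin gene that reached 1 FPKM in both samples of a group, as log2(FPKM + 1) on the y axis, with 1 point per sample (placodes orange, SMGs blue, sample 1 filled circles, sample 2 open squares) and a dashed line at 1 FPKM. Krt5, Krt14, Krt15, Krt17 and Krt4 lie at 0 in both placode samples, while Krt8, Krt18 and Krt19 lie above 2 in all 4 samples.

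A mean FPKM of at least 1 was found for 10 members, which were tested. Of these, 2 were called higher in the placodes (Krt7 and Krt19), 5 were called lower (Krt4, Krt5, Krt14, Krt15 and Krt17) and 3 were not called (Krt8, Krt10 and Krt18), beside 35.7% and 40.4% called higher and lower over all features. All 5 genes called lower passed the minimum through the SMG samples alone and were listed at 0 in both placode samples. Such genes could pass only by being high in the SMGs, so no fold change or p from this fit is given for them. With no minimum of FPKM, all 5 were also called lower, with adjusted p by limma of at most 0.00377 (Krt17). Krt7 passed through the placode samples alone.

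The simple keratins were the main keratins of the placodes. Krt8, the type II chain of simple epithelia, was at 34.4 and 35.6 FPKM in the placodes and at 36.1 and 28.3 in the SMGs. The placode values lay between those of the SMGs, and the log2 fold change was 0.13 (95% confidence interval -0.14 to 0.40, adjusted p = 0.322 by limma). Without SMG sample 1 this gene was called higher in the placodes (log2 fold change 0.30, adjusted p = 0.0156), and without SMG sample 2 its log2 fold change was -0.04.

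Krt18, the type I partner of Krt8, reached 20.8 and 24.5 FPKM in the placodes, against 20 and 15.4 in the SMGs. Both placode samples were higher than both SMG samples, by a small margin between the closest pair. The log2 fold change was 0.34 (95% confidence interval 0.02 to 0.67) with an adjusted p of 0.0541 by limma, just short of the threshold. The adjusted p was 0.0254 after scaling the samples to an equal sum of FPKM, 0.0301 after median-ratio scaling, 0.0445 with the replicate number as a block and 0.0300 without SMG sample 1, and it reached 0.351 without placode sample 2.

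Krt19, a type I keratin of ducts with a very short tail (chr11:100140810-100148665), was at 14.7 and 15.8 FPKM in the placodes and at 9.78 and 6.53 in the SMGs. Both placode samples were above both SMG samples, and Krt19 was called higher by 0.85 on the log2 scale (SE 0.16, adjusted p = 0.00363). This call was lost when either placode sample was left out, with an adjusted p of 0.0658 without sample 1 and 0.0826 without sample 2.

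Krt7, a type II keratin of ductal and glandular epithelia (chr15:101411043-101430313), was low in both groups. Its FPKM was 2.19 and 3.02 in the placodes and 0.914 and 0.674 in the SMGs. The groups did not overlap. The log2 fold change was 1.00 with and without the minimum of FPKM. With no minimum, so that passing it played no part, the adjusted p by limma was 0.00689. Krt20, the remaining simple keratin, which marks intestinal and urothelial epithelium, was not tested, with 0.169 and 0.0964 in the placodes and 0.651 and 0.202 in the SMGs.

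The balance of the simple keratins differed between the samples of the groups in each ratio taken. Krt8 exceeded Krt18 by a ratio of FPKM of 1.65 and 1.45 in the placodes and of 1.80 and 1.83 in the SMGs. The sum of the type II chains Krt7 and Krt8 over the sum of the type I chains Krt18 and Krt19 was 1.03 and 0.959 in the placodes and 1.24 and 1.32 in the SMGs. The ratio of Krt7 to Krt8 was 0.0636 and 0.0848 against 0.0254 and 0.0238, and that of Krt19 to Krt18 was 0.707 and 0.644 against 0.488 and 0.423. No range overlapped between the groups. The ratios share genes and so are not separate results, and how often ratios of other genes fail to overlap was not counted. Such ratios are given without a test, since with 2 samples per group the smallest p of an exact two-sided permutation test is 0.333.

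The basal keratins were the main keratins of the SMGs and were listed at 0 in the placodes. Krt15, a type I keratin of basal and progenitor cells (chr11:100131758-100135928), had the highest FPKM of all keratins, at 128 and 121 in the SMGs, where it ranked 351 and 383 among 22036 genes. It was listed at 0 in both placode samples. Its neighbour Krt19, 4.88 kb away, was expressed in all 4 samples.

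Krt5, the basal type II keratin (chr15:101707070-101712898), was at 47.2 and 44.7 FPKM in the SMGs and was listed at 0 in both placode samples. Krt14, a type I partner of Krt5, had 19.9 and 17.8 in the SMGs and was listed at 0 in the placodes. The SMG samples agreed closely for these genes. The ratio of Krt5 to Krt14 was 2.37 and 2.52, that of Krt5 to Krt15 was 0.369 and 0.370, and that of Krt5 to the sum of Krt14 and Krt15 was 0.319 and 0.323. The type I basal chains thus exceeded the type II chain in both SMG samples. By qPCR, the authors reported more Krt5 and Krt14 in aggregates given FGF10 than in those without it. They also reported staining for Krt5 protein in duct-like structures on day 10. These are other measures than FPKM, and how they relate to the values of 0 was not tested.

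Keratins of the upper layers and of appendages were low. Krt4, a type II keratin of the suprabasal layers of oral and other internal epithelia, was at 3.84 and 2.58 FPKM in the SMGs and was listed at 0 in both placode samples. Its type I partner Krt13 was at 0.0743 and 0.0521 in the SMGs and listed at 0 in the placodes. Krt17, a type I keratin of appendages, early ectodermal buds and repair, had 2.99 and 1.60 in the SMGs against 0 in both placode samples.

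Krt10, the type I keratin of the suprabasal epidermis, was at 3.30 and 2.57 FPKM in the placodes and at 2.97 and 3.30 in the SMGs. The groups overlapped, with a log2 fold change of -0.08 (95% confidence interval -0.39 to 0.24, adjusted p = 0.606). Its type II partner Krt1 was not tested, with 0.161 and 0.135 in the placodes and 1.11 and 1.26 in the SMGs, so the placode samples held Krt10 with little Krt1. Krt2, Krt9 and Krt77, the other epidermal keratins, were at most 0.0716 in every sample.

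Among the genes that stayed below 1 FPKM in at least 1 sample of each group, Krt80 and Krt23 came closest. Krt80, a widely expressed epithelial type II keratin, was at 1.29 and 0.916 in the SMGs and at 0.0724 and 0.0211 in the placodes. Krt23 was at 0.978 and 1.02 in the SMGs and listed at 0 in the placodes, and Krt24 at 0.368 and 0.524 against 0. Krt79 had 0.687 and 0.306 in the SMGs and 0 in both placode samples. All of these were higher in both SMG samples than in both placode samples.

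The opposite order was seen for Krt90, a type II gene, which had 0.749 and 0.251 in the placodes against 0 in both SMGs, and for Krt9, at 0.0582 and 0.0716 against 0. These were the 2 members listed at 0 in both SMG samples and above 0 in both placode samples, and both stayed below 1 FPKM. The reverse was seen for 12 members. The share of all features with either pattern was not counted, so these counts are a description. Krt222 had 0.187 and 0.154 in the placodes and 0.552 and 0.225 in the SMGs. Krt16 was above 0 in SMG sample 2 alone, at 0.477.

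The keratins of the hair follicle were close to absent in all samples. Of the 13 hair shaft keratins, Krt87 was the highest, at 0.101 and 0.0910 in the SMGs, and none was above 0 in the placodes. The 7 keratins of the inner root sheath reached at most 0.165, for Krt27 in SMG sample 1. The 16 members listed at 0 in all 4 samples were Krt12, Krt31, Krt32, Krt34, Krt39, Krt40, Krt72, Krt73, Krt76, Krt78, Krt81, Krt82, Krt83, Krt84, Krt86 and Krt88.

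**Figure D2:**
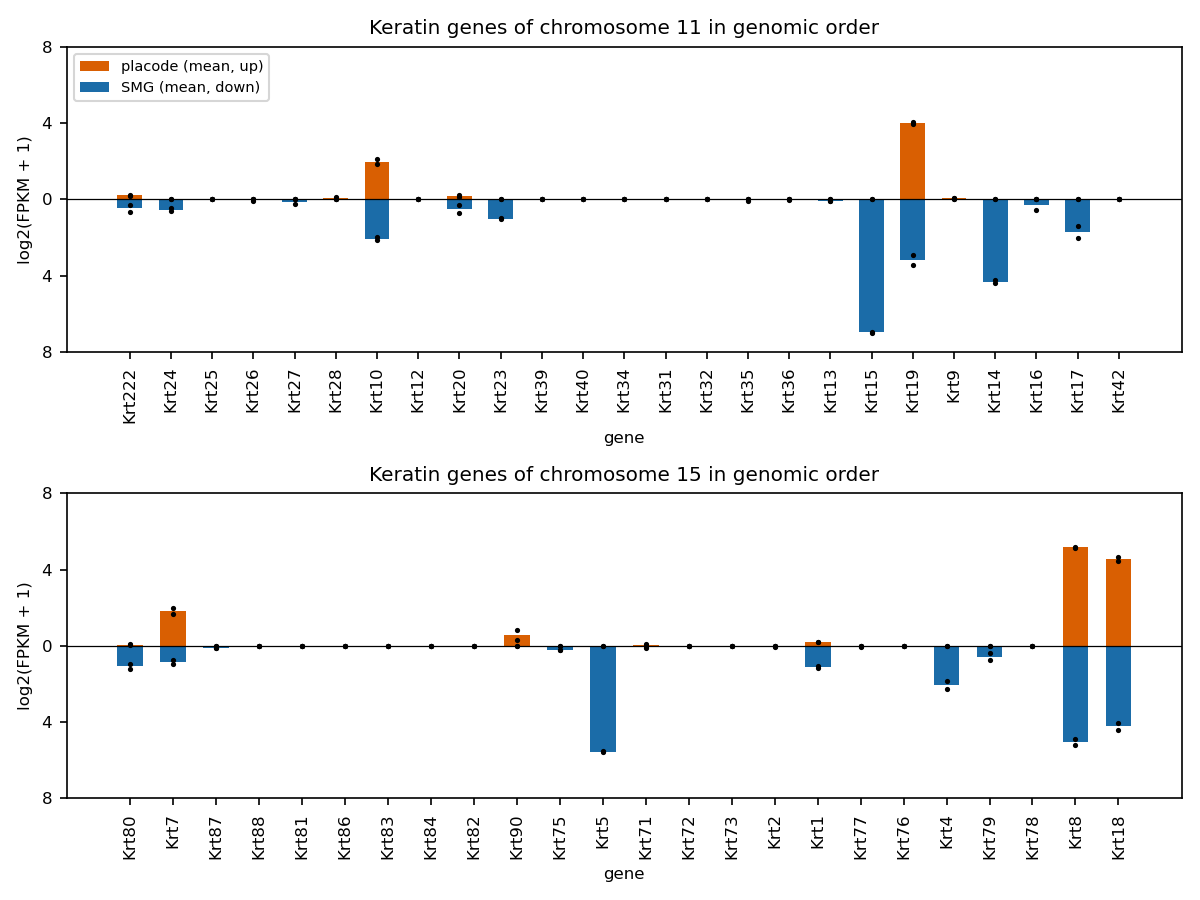
All 49 keratin genes in genomic order along chromosomes 11 (top) and 15 (bottom), with the group mean of log2(FPKM + 1) drawn upwards for placodes and downwards for SMGs and dots for single samples. In the placodes, genes listed at 0 sit beside expressed ones, such as Krt15 next to Krt19, whereas both are expressed in the SMGs. In both groups, the long stretches of hair keratins lie at or near 0.

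Summed over all 49 genes, keratin FPKM came to 76.9 and 82.4 in the placodes (79.6 ± 3.86, SD, n = 2) and to 278 and 247 in the SMGs (262 ± 21.9, SD, n = 2), so the SMG mean was 3.30 times the placode mean. Simple keratins made up 94.0% and 95.9% of this sum in the placodes and 24.3% and 20.7% in the SMGs. In FPKM the simple keratins summed to 72.3 and 79.0 in the placodes and to 67.4 and 51.1 in the SMGs, so both placode samples were above both SMG samples by this sum. Basal keratins made up 70.2% and 74.2% in the SMGs.

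**Figure D3:**
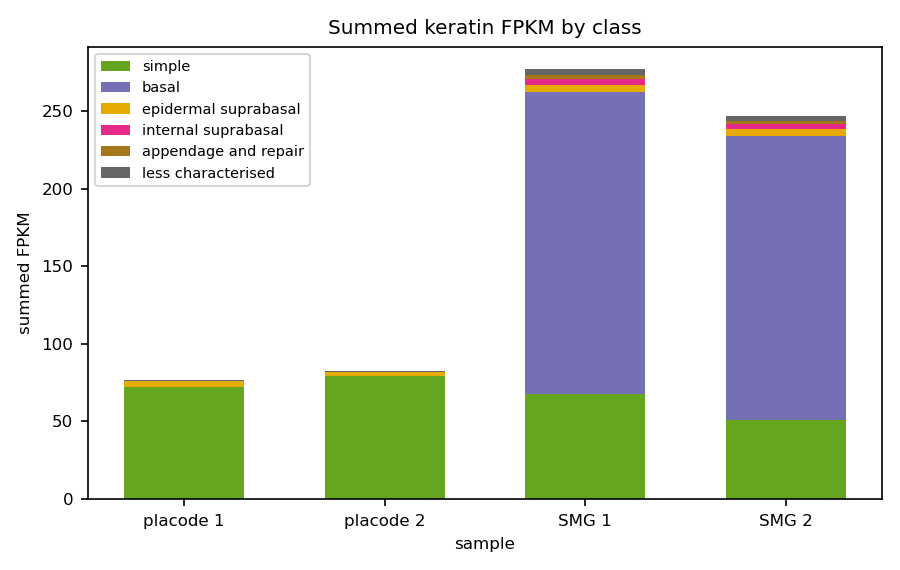
Summed FPKM of keratin genes in each sample, stacked by class, on a linear axis from 0. The green part (simple keratins) lies between 51.1 and 79.0 in all samples, and the purple part (basal keratins), 195 and 183 in the SMG samples, is missing in the placodes. Hair shaft and inner root sheath keratins are too low to draw.

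Type I and type II chains were nearly balanced in the placodes and unequal in the SMGs. Summed type I FPKM was 39.3 and 43.3 in the placodes and 187 and 168 in the SMGs, and summed type II FPKM was 37.6 and 39.1 against 91.4 and 79.1. The ratio of type II to type I was thus 0.955 and 0.904 in the placodes against 0.490 and 0.471 in the SMGs. Krt15 alone accounted for 46.1% and 48.9% of all keratin FPKM in the SMGs, and Krt8 for 44.7% and 43.2% in the placodes.

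The SMG samples differed from each other more in simple than in basal keratins. The ratio of SMG sample 1 to sample 2 was 1.28 for Krt8, 1.30 for Krt18, 1.36 for Krt7 and 1.5 for Krt19, against 1.06 for Krt5, 1.06 for Krt15 and 1.12 for Krt14. Krt4 and Krt17 were also higher in sample 1, by 1.48 and 1.87. Krt10 went the other way, with a ratio of 0.9, as did Krt1, at 1.11 in sample 1 and 1.26 in sample 2. This difference was not tested, since it rests on 1 pair of samples.

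Genes that share sequence or position with others limit some of these values. Near-identical stretches of Krt14, Krt16 and Krt17 can share reads. Exons of Krt5, Krt7, Krt8 and Krt10 overlap an annotated gene on the opposite strand, and the sources used here do not state that strand was used in counting. Outside the rule, Krt6a, a paralog of Krt5 in appendages and repair, was listed at 0 in the placodes and at 4.74 and 4.23 in the SMGs, and 53 of 56 Krtap rows were listed at 0 in all samples.

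Genes outside the keratins were read from lists. Among 12 markers of epithelial cells, all 12 reached 1 FPKM in both SMG samples and 5 did so in the placodes, and all 12 were called lower in the placodes, where 40.4% of all features were. Of the 12, 7 had a placode mean below 1 FPKM and passed the minimum through the SMGs alone, so no median fold change is given. For genes of this kind, here and in the lists that follow, levels are given without a fold change or p. Epcam, a surface protein of epithelia, was at 1.75 and 2.69 FPKM in the placodes and at 87.2 and 78.8 in the SMGs (log2 fold change -4.72, adjusted p = 1.02e-06). Cdh1, which encodes E-cadherin, was at 1.11 and 1.18 against 28.2 and 24.7. Rab25, an epithelial trafficking gene, was at 0.296 and 0.378 against 3.39 and 2.55.

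Krt8 and Krt18 did not follow Cdh1 and Epcam. The ratio of Krt8 to Cdh1 was 31.0 and 30.3 in the placodes, against 1.28 and 1.14 in the SMGs. The ratio of Krt8 to Epcam was 19.6 and 13.2 in the placodes and 0.414 and 0.358 in the SMGs. For Krt18 the ratio to Cdh1 was 18.7 and 20.8 against 0.71 and 0.624, and that to Epcam was 11.9 and 9.09 against 0.23 and 0.196. None of these ranges overlapped between the groups. The ratios share genes, and how often ratios of other genes fail to overlap was not counted, so they are a description.

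Of 7 factors known to act at keratin promoters, 6 were tested, 5 were called lower in the placodes and none higher, beside 40.4% and 35.7% of all features. Of the 6, 2 passed the minimum through the SMGs alone. Trp63, the p63 factor that drives Krt5 and Krt14 in basal cells, was at 0.0286 and 0.0262 FPKM in the placodes and 13.6 and 13.2 in the SMGs. The smallest fall among those called was that of Klf5 (log2 fold change -1.33, adjusted p = 1.61e-04). Tfap2c, an AP-2 factor named after its values were seen, was at 3.98 and 3.15 against 3.54 and 3.25 (adjusted p = 0.737).

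Keratin filaments are anchored at desmosomes and hemidesmosomes. Of 13 genes of these anchors, 12 were tested, 8 were called lower and 2 higher in the placodes, beside 40.4% and 35.7% of all features. Of the 12, 5 passed the minimum through the SMGs alone and 2 through the placodes alone. Dsp, the desmoplakin that binds keratin to desmosomes, was at 2.87 and 3.49 in the placodes and 15.6 and 15.5 in the SMGs (log2 fold change -1.99, adjusted p = 7.27e-06). Jup, or plakoglobin, was at 11.8 and 12.6 against 37.2 and 36.8 (adjusted p = 2.71e-06). Col17a1, a collagen of hemidesmosomes in basal cells, was at 0 and 0.0509 in the placodes and averaged 12.1 FPKM (SD 0.617, n = 2) in the SMGs.

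Pkp2, a plakophilin of simple epithelial and cardiac desmosomes, had the opposite order, with 10.7 and 10.3 in the placodes and 0.400 and 0.543 in the SMGs. Plec, or plectin, a linker of many filaments, was not called (log2 fold change -0.11, adjusted p = 0.320).

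Intermediate filament genes of other types had a higher summed level in the placodes than in the SMGs, with the largest rises in the neuronal genes Ina, Nefm and Nefl. The 16 such genes summed to 1280 and 1270 FPKM in the placodes and to 651 and 628 in the SMGs. Of 13 tested, 7 were called higher and 5 lower, beside 35.7% and 40.4% of all features. Of the 5 called lower, 3 passed the minimum through the SMGs alone. Ina, which encodes the neuronal filament protein α-internexin, rose most, with 224 and 236 in the placodes and 1.90 and 1.62 in the SMGs (log2 fold change 6.39, adjusted p = 7.49e-08). Nefm was at 199 and 187 in the placodes against 11.9 and 11.6 in the SMGs, and Nefl at 176 and 167 against 19.1 and 17.1. Nes, the nestin of neural progenitors, was at 56.9 and 65.4 against 29.8 and 29.0 (adjusted p = 3.76e-05).

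Vim, the vimentin of mesenchymal and neural progenitor cells, was the most abundant of these genes in both groups, at 466 and 461 in the placodes and 393 and 383 in the SMGs. It was called higher by 0.26 on the log2 scale (adjusted p = 0.00582), which was not reached without placode sample 1 (adjusted p = 0.0603) or without placode sample 2 (adjusted p = 0.0536). Des, the desmin of muscle, was at 0.721 and 0.585 against 8.82 and 7.19.

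**Figure D4:**
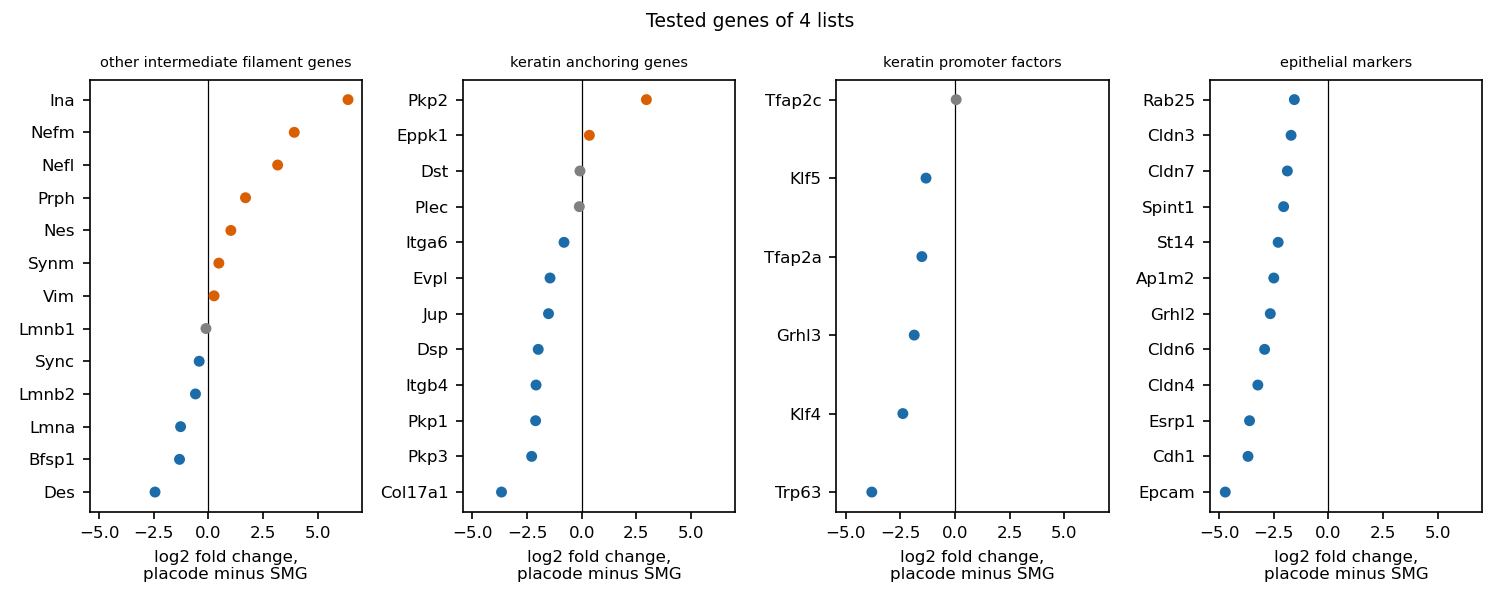
Log2 fold change (placode minus SMG, on log2(FPKM + 1)) of each tested gene of 4 lists, with orange for genes called higher, blue for genes called lower and grey for genes not called. Bars give the standard error, which lies within the points. All epithelial markers lie left of 0, though 7 of the 12 were tested only through their SMG level, which fixed that side in advance. Other lists also hold genes that passed the minimum through 1 group alone. The neuronal filament gene Ina lies farthest right, at 6.39.

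Markers of other cell types that could be in the samples moved between the groups as well. All 6 neural markers were called higher in the placodes, beside 35.7% of all features, and summed to 775 and 802 FPKM there against 74.8 and 67.2 in the SMGs. Of these, 2 passed the minimum through the placodes alone, namely Pax6, at 40.7 and 42.2 against 0.1 and 0, and Sox1, at 4.46 and 4.21 against 0.0130 and 0. All 6 mesenchyme markers were called lower, beside 40.4% of all features, summing to 169 and 167 against 1520 and 1490, with Prrx1 falling most (log2 fold change -4.58) and Twist1 least (-1.51). All 4 endothelial markers were called lower, again beside 40.4%, but 3 of them passed the minimum through the SMGs alone. They summed to 9.66 and 9.20 against 98.0 and 104, with Tie1 at 0 and 0.122 against 17.1 and 17.2, and Cdh5 had a log2 fold change of -1.93.

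Simple keratins are also carried by visceral endoderm, mesothelium and trophoblast. The 5 visceral endoderm markers summed to 0.616 and 0.427 in the placodes and 5.48 and 4.71 in the SMGs, of which Sox17, at 0.318 and 0.254 against 4.67 and 4.55, held most, and Afp, Ttr, Apoa1 and Apob were below 1 in every sample. The 4 mesothelium markers summed to 7.59 and 7.07 against 0.581 and 0.406, nearly all from Wt1, which the neural tube and kidney can also express, while Upk3b was listed at 0 in all samples and Msln was at most 0.154. Of the 4 trophoblast markers, Tpbpa was at 17.1 and 14.3 in the placodes against 0 in both SMGs, Elf5 was at 0.330 and 0.190 against 4.34 and 3.59, Cdx2 was at 0.718 and 0.656 against 0, and Eomes was at most 0.0318. The part of these cell types in the keratin values was not tested.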

How the data were processed

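Total RNA of PSC-derived SG placodes (day 10) and of SMGs at E12.5 was sequenced as paired-end reads, with 2 samples per group, grouped by the sample titles. The authors used HISAT2 for mapping and deposited FPKM per gene, in which fragment counts are divided by transcript length and mapped total. The processing notes name GRCm38 and GRCh38. The HISAT2 version, annotation and FPKM software are not given in the sources used here. Table columns were matched to samples by group name and number, and 0 columns were left out. Low values showed no steps of whole reads, so depth is unknown and limits on precision come from 2 samples per group.

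The 49 keratin genes are the rows whose symbol is Krt and digits. The members and gene lists were chosen with earlier results of these data known. All 49 were found by Ensembl identifier in GENCODE M21. FPKM was transformed as log2(FPKM + 1). The 13193 features with a mean FPKM of at least 1 were fitted by group with limma 3.58.1 under R 4.3.3, using eBayes with a mean-variance trend. All p-values are two-sided with Benjamini-Hochberg adjustment over these features, and a call is an adjusted p below 0.05. A fold change is the placode mean minus the SMG mean of log2(FPKM + 1), which understates changes of low genes. Detection means at least 1 FPKM in both samples of a group. The procedure was tested on simulated data. Sums and ratios of FPKM were taken per sample in Python 3.11.15.

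Genes named are members with detection in a group, with other members by symbol and range, and in each other list the highest and lowest log2 fold change among called genes, plus Vim, Nes, Dsp, Jup, Plec, Cdh1, Epcam and Trp63. Each alternative differed in a single choice, namely a pseudocount of 0.1, scaling to equal sums, median-ratio or quantile scaling, no minimum or a minimum mean FPKM of 5, a block for replicate number, robust eBayes or eBayes with no trend, detection at 0.1 or 5 FPKM, and each replicate left out, where a lone sample is assumed to vary like the other group. Leaving out assembled loci was added after seeing the data. Promoter windows were found for 35 of the 49 members.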

Additional observations from a re-analysis of the deposited data

How the results depend on the processing

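Counts, sums and ratios recomputed under alternatives stayed within 1.5 times the count or 1 SD of the value in 100 cases and not in 10. Some of these outcomes were fixed in advance. With 2 samples per group, a sum or ratio with 1 left out always lies within 1 SD of the mean. Scaling a sample also leaves its ratios unchanged. The tally is therefore not a measure of robustness. Without a minimum of mean FPKM, 14 keratin genes of 33 tested were called (3 higher and 11 lower), beside 58.1% of all features. With a minimum of 5, 4 of 6 were called (1 higher and 3 lower), beside 77.1% of all features, since fewer genes were then tested. That minimum also left 7 intermediate filament genes of other types, 5 anchoring genes, 2 promoter factors and 5 epithelial markers called. At detection levels of 0.1 and 5 FPKM, 8 and 3 keratin genes were detected in the placodes and 18 and 6 in the SMGs. Leaving out 1 sample gave 6 to 9 keratin genes called, a keratin sum of 76.9 to 82.4 in the placodes and 247 to 278 in the SMGs. The log2 fold change of Krt8 then ranged from -0.04 (without SMG sample 2, not called) to 0.30, and that of Krt10 from -0.21 to 0.06 (without placode sample 2), not called in any case. Samples with the same replicate number shared only that number (r of their deviations -0.0348), and with the replicate number as a block 10043 features and 8 keratin genes were called, the added gene being Krt18. The median log2 fold change over all features was -0.05 as deposited and 0.004 to 0.005 under the equal-sum and median-ratio scalings. Depth is unknown, so a gene listed at 0 cannot be given an upper limit.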

Other observations

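The placode samples held transcripts of a group of placental genes. After Tpbpa had been seen, 15 genes of the trophoblast and placenta were listed, of which 10 reached 1 FPKM in both placodes and 3 did so in both SMGs. Of the 10 tested, 7 were called higher and 1 lower in the placodes, beside 35.7% and 40.4% of all features, and all 7 called higher passed the minimum through the placodes alone. Since the list was made after a member had been seen, its counts are a description.

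Among the placental members of the prolactin family, Prl3b1 and Prl2c2 were among the highest of these genes. Prl3b1, a placental lactogen of later gestation, averaged 16.8 FPKM (SD 6.03, n = 2) in the placodes and was at 0 and 0.259 in the SMGs. Prl2c2, a proliferin of trophoblast giant cells, was at 6.28 and 12.1 against 0.0941 and 0, and Prl3d1, the placental lactogen of early giant cells, at 2.44 and 3.83 against 0 in both SMG samples. Placode sample 2 was the higher one for all of these. Prl8a9, another member of the family, was at 4.06 and 4.15 against 0.

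Tpbpb, a relative of Tpbpa, was at 4.96 and 5.48 in the placodes and at 0.0740 and 0 in the SMGs. Hand1, a factor needed in giant cells and also in mesoderm, was at 2.67 and 3.82 against 0.412 and 0.0275. Gcm1 and Synb, genes of the syncytiotrophoblast, were listed at 0 in all 4 samples. Plac1 was lower in the placodes, at 3.04 and 2.83 against 10.9 and 9.62. Prolactin family genes lie in a cluster of close copies, so the assignment of reads among them is uncertain, and no relation to the keratin values was tested.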
